A study of Mus musculus with 49 samples.

Results

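The comparison covered here set hepatocytes 3 h after plating (Hep 3 h, 3 libraries) against freshly isolated hepatocytes (FH, 3 libraries), 6 of the 49 libraries of the series, chosen by their labels. The cells of both groups came from the livers of wild-type C57BL/6J male mice aged 10 weeks, taken by a 2-step collagenase digestion followed by centrifugation to leave non-parenchymal cells behind. FH were measured after isolation, without culture. Hep 3 h had been seeded on plates coated with type I collagen in a medium for hepatic progenitor cells with EGF at 20 ng/mL. The assay was CEL-seq2, a method that sequences transcript 3′ ends and counts unique molecular identifiers (UMIs). Values are also given for cells kept 1 d in the same monolayer culture (3 libraries). The labels do not say whether replicates came from separate mice, so p-values measure a spread between libraries that may be technical. This spread was pooled over the 21 libraries of the time course in 1 fit, beyond the 6 compared here. The question was which transcripts change in the first hours of culture, before the longer time points of the course.

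Hepatocytes in the adult liver rest in the cell cycle and carry out metabolic work under a set of transcription factors that includes Hnf4a, Foxa proteins and Cebpa. Isolation cuts the cells from their neighbours and matrix, and plating exposes them to a stiff surface and to growth factors. Immediate early genes such as Fos, Jun, Egr1 and Myc can be switched on within minutes to hours of such stimuli because their factors, among them serum response factor, are already present. Later regulators in the same wave include the dual-specificity phosphatases, which turn off ERK and related kinases, inhibitors of NF-kB, and metallothioneins, which bind zinc and copper.

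Library totals ran from 1211070 to 1523804 UMI counts, and a floor of 3 counts was 2.94 to 3.9 CPM. Values are CPM (counts relative to the library's total) scaled with TMM factors of edgeR. Because UMIs of 6 bases have a limited number of sequences, the counts of the most abundant transcripts were compressed, with a highest count per gene of at least 4049 in each library. The marker list of hepatocytes (Alb, Ttr, Cps1, Hnf4a and 8 others) summed to 18500, 18100 and 16200 CPM of the library total in FH and 19800, 21200 and 21000 at 3 h, with all 12 markers detected. FH replicate 1 stood apart from the other FH libraries. Over log2 CPM of the genes tested, its median correlation was 0.886 with the other FH libraries and 0.894 with the libraries at 3 h, whereas the other FH libraries had 0.916 and 0.917 within their group and 0.833 and 0.845 with 3 h. Counts of calls are therefore given with and without FH replicate 1. Where 3 values are given for a group they are those of replicates 1 to 3, and a value in parentheses is the log2 fold change of 3 h minus FH with its SE after ±.

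Of 12443 genes tested, 860 were called at 3 h, that is, had an FDR under 0.1 together with a log2 fold change beyond 2 in either direction (4-fold) in the quasi-likelihood test of edgeR, which was 6.91% of the genes tested. Higher at 3 h were 381 genes (3.06%), among them the ERK phosphatase Dusp5, the cell cycle inhibitor Cdkn1a, the metallothioneins Mt1 and Mt2, the chemokines Cxcl1 and Cxcl10 and the early-response factors Myc, Fosl1, Klf6 and Ier5. Lower at 3 h were 479 genes (3.85%), among them the hepatocyte regulators Foxa2, Prox1, Nr5a2 and Ppara and markers of macrophages. The most abundant transcripts gave no call: of the 100 genes with the highest mean CPM in FH, 0 were called by edgeR or DESeq2, 2 had an FDR under 0.1 and 5 an unadjusted p under 0.05, and their log2 fold changes ran from -1.38 to 0.53 with a median of 0.04. The lowest mean CPM in FH of these 100 genes was 2190. The highest level of any gene, averaged over FH and 3 h, was 4520 CPM. UMI counts are compressed at these levels, so a 4-fold rise of these genes could not be seen, and a 4-fold fall would read as less than 4-fold. The absence of higher calls among them therefore says nothing on whether they rose. The absence of lower calls does not exclude falls near 4-fold. The median over all genes tested was -0.07. Groups did not overlap for 797 of the 860 genes called and for 3493 of all genes tested (28.1%).

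Without a fold threshold, 943 genes were higher (7.58%) and 1358 lower (10.9%) at an FDR under 0.1. The called higher genes rested on more counts than the called lower genes, with medians of 124 and 57 counts over the 6 libraries. Among the called lower genes 38 had 0 counts at 3 h and 80 had 20 or fewer counts in all, against 27 with 0 counts in FH and 24 with 20 or fewer among those called higher. Of 7100 genes with over 100 counts, 215 were called higher (3.03%) and 154 lower (2.17%). Without FH replicate 1, 1527 of 12854 genes tested were called, 898 higher (6.99%) and 629 lower (4.89%). These included 781 of the 860 calls, 90.8% of them and 51.1% of the 1527, and 0 genes called in both fits changed direction. Without FH replicate 2 or 3, or with one library at 3 h left out, 620 to 855 genes were called.

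**Figure D1:**
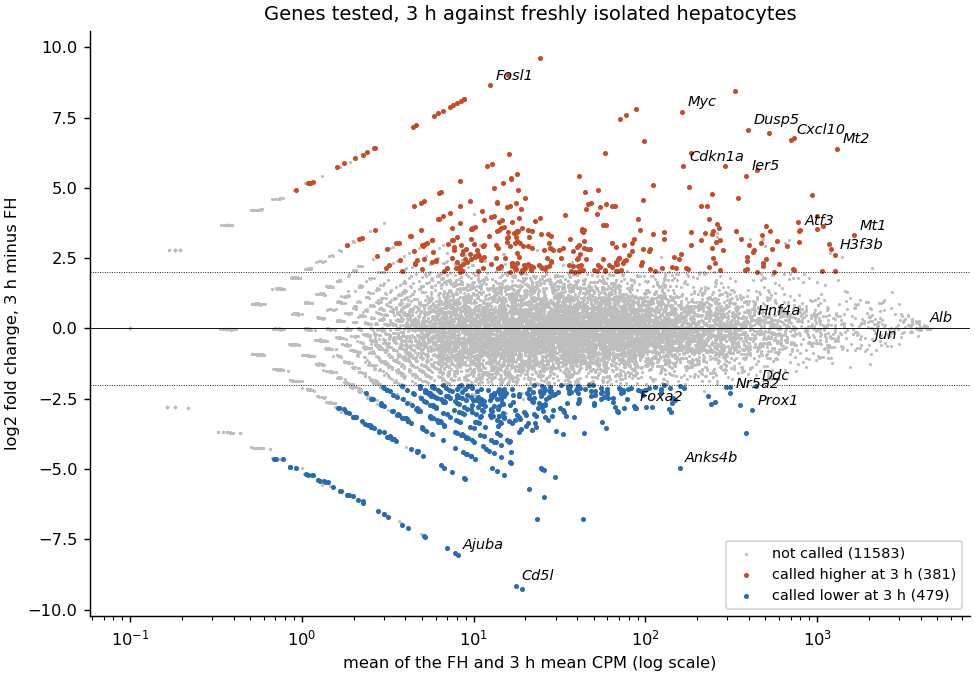
Each point is a gene tested, with the mean of the FH and 3 h mean CPM on a log axis and the log2 fold change of 3 h minus FH on the other, dotted lines at 2 and -2. The 381 genes called higher include abundant transcripts such as Mt1, Mt2 and H3f3b, the 479 called lower lie mostly at lower levels, and the diagonal rows at the left are genes with few or 0 counts in one group.

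The strongest evidence for a rise fell on genes that regulate signalling, transcription and the cell cycle. Dusp5 (ENSMUSG00000034765, chromosome 19, 53529109 to 53542431, GRCm38), the phosphatase that removes the activating phosphates of ERK in the nucleus, had 6.56, 1.3 and 8.82 CPM in the FH libraries and 699, 847 and 805 CPM at 3 h. Its log2 fold change was 7.07 ± 0.48 (SE) with an adjusted p of 5.9e-09 by edgeR. Every library at 3 h was far above every FH library, and the same was true of the other 11 genes with the smallest p. Ier5 (chromosome 1, 155096361 to 155099636), an early-response gene that takes part in heat shock factor control, rose from 26.2, 13 and 12.7 to 569, 648 and 1037 CPM, a log2 fold change of 5.43 ± 0.38. Mt2 (chromosome 8, 94172664 to 94173568), a metallothionein, rose from 12, 28.6 and 50.9 to 2835, 2453 and 2436 CPM, or 6.39 ± 0.45 on the log2 scale.

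Cdkn1a, which encodes the CDK inhibitor p21, had 6.56, 6.5 and 4.9 CPM in FH and 482, 213 and 287 CPM at 3 h. Lcn2, a siderophore-binding acute-phase protein, went from 17.5, 5.2 and 7.84 to 685, 430 and 589 CPM. Both genes rose, by 5.77 ± 0.45 and 5.78 ± 0.48 on the log2 scale, with adjusted p-values of 3.5e-08 and 7.1e-08. Ifrd1, a transcriptional co-regulator of the early response, was at 54.6, 55.9 and 89.2 CPM in FH and 1916, 1156 and 2319 CPM at 3 h. Igfbp1, the liver's insulin-regulated IGF-binding protein, was at 77.6, 122 and 155 CPM in FH against 1994, 1733 and 1894 CPM at 3 h. Klf6, a zinc finger factor induced by injury, was at 27.3, 7.8 and 15.7 CPM in FH against 457, 394 and 572 CPM at 3 h. Rises of these 3 genes came to 4.75 ± 0.37, 3.98 ± 0.34 and 4.79 ± 0.43 on the log2 scale.

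The last 3 of the 12 were close to the floor in FH. Spsb1, an adaptor of a ubiquitin ligase, had 0, 1.3 and 2.94 CPM in FH and 89.1, 132 and 126 CPM at 3 h, and Itpkc, an inositol trisphosphate kinase, had 2.19, 1.3 and 1.96 CPM in FH against 154, 248 and 184 CPM at 3 h. Slpi, a secreted protease inhibitor, had 2 counts over the FH libraries and 415 over those at 3 h, a ratio of 204 with a 95% counting interval of 56.1 to 1690. By abundance at 3 h the called higher genes were led by Mt1, Mt2, H3f3b, Cebpb and Steap4. H3f3b, which encodes the replication-independent histone H3.3, had 255, 350 and 451 CPM in FH and 2536, 1668 and 2318 CPM at 3 h.

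**Figure D2:**
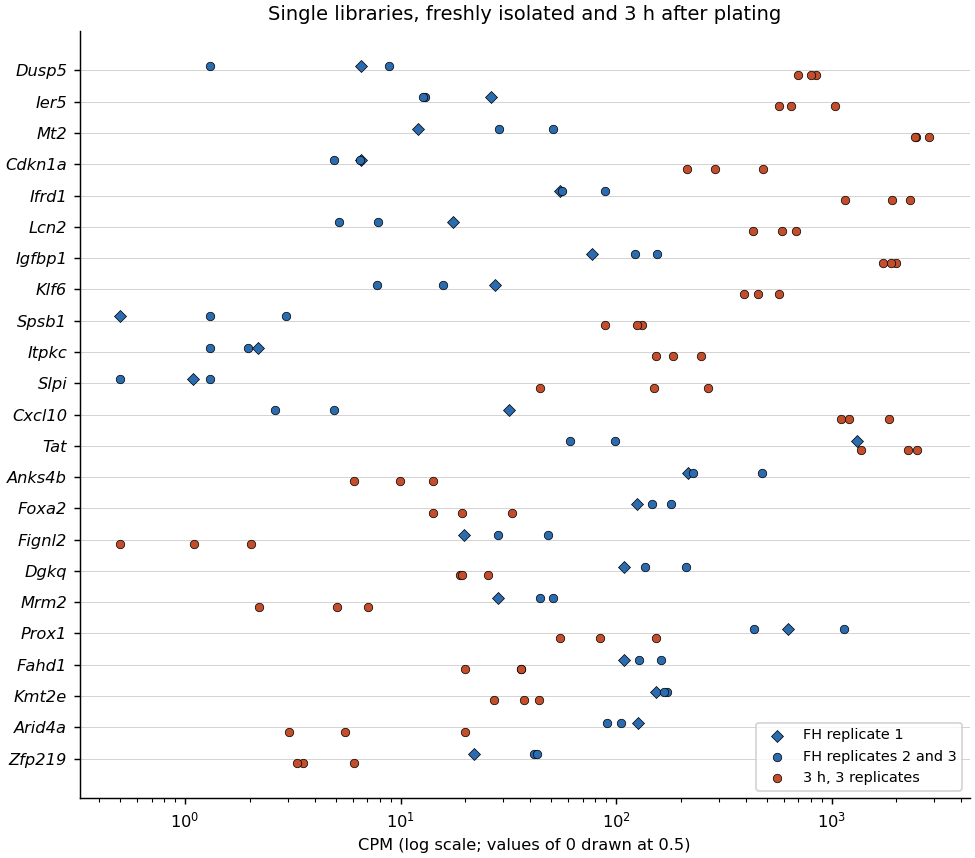
CPM on a log axis in each of the 6 libraries for 23 genes, FH in blue (replicate 1 as a diamond) and 3 h in orange. The groups do not overlap for the upper 12 genes or the lower 10, and Tat is shown because FH replicate 1, at 1311 CPM, lies near the libraries at 3 h.

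Promoters of 6 of the genes that rose are shown because they hold letters of elements known from such responses. The sequences are from RefSeq (GRCm38.p6), 250 bases before to 50 bases after a transcription start. CArG boxes, the sites of serum response factor, are in capitals for Dusp5 (chr19:53528895-53529194, plus strand).

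Dusp5: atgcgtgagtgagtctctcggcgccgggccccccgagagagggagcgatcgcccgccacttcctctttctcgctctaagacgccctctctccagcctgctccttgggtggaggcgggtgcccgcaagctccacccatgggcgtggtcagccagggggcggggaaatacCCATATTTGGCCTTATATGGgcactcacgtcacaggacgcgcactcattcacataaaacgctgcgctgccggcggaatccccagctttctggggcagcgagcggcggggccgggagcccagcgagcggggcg

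NF-kB motifs are in capitals for Cxcl1 (chr5:90890995-90891294, plus strand), Cxcl10 (chr5:92348840-92349139, minus strand) and Nfkbia (chr12:55492598-55492897, minus strand).

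Cxcl1: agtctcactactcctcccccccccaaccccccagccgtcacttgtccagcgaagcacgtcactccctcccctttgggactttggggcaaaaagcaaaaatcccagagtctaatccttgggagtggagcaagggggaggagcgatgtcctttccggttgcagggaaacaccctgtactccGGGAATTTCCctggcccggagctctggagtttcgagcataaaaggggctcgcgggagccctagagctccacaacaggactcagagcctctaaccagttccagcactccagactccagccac

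Cxcl10: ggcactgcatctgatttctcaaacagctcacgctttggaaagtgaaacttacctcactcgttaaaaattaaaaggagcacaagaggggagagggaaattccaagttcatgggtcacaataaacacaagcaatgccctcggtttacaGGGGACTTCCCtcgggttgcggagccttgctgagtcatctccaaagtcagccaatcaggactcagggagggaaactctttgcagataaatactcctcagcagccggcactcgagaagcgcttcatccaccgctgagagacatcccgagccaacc

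Nfkbia: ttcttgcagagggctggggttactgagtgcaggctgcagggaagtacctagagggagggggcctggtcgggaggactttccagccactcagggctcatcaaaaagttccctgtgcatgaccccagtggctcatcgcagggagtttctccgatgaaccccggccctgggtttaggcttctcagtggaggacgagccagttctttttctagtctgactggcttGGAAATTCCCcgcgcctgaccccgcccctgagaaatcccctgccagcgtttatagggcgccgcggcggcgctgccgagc

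Core letters of the metal response element, TGCACNC or TGCGCNC on either strand, are in capitals for Mt2 (chr8:94172368-94172667, plus strand) and Mt1 (chr8:94178839-94179138, plus strand).

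Mt2: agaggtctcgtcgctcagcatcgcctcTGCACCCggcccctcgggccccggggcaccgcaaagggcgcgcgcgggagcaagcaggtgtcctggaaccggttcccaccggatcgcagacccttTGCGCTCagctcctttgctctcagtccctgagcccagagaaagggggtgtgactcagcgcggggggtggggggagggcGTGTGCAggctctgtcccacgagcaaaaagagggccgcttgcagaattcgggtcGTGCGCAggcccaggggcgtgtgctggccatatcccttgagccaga

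Mt1: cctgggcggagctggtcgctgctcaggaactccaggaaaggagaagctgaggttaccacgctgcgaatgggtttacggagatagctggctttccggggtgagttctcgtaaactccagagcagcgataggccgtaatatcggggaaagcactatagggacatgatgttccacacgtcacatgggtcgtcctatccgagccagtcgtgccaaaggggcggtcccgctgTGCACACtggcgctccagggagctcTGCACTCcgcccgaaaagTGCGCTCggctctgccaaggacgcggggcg

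Dusp5 held 2 CArG boxes side by side, Cxcl10 held 2 NF-kB matches that overlap in all but 1 base, Cxcl1 and Nfkbia held 1 each, and Mt2 and Mt1 held 4 and 3 of the metal element's cores. Of the 12443 genes tested, 8779 had a promoter entry. CArG boxes stood in 1.56% of these, NF-kB motifs in 8.02% and cores of the metal element, a short and frequent run, in 40.4%. Among the called NF-kB and inflammatory genes described further on, 6 of the 8 with an entry held an NF-kB motif. That list was written as NF-kB feedback genes, chemokines and cytokines, so this share is no test of NF-kB action at 3 h. Of the 8 called ERK feedback genes with an entry, 1 held a CArG box. The AP-1 motif (TGANTCA, either strand) stood in 6.38% of all promoters, in 13.2% of the 228 of called higher genes and in 4.79% of the 292 of called lower genes. For the motifs shown above, the shares in called higher and called lower genes were 2.19% and 0.342% for CArG boxes and 10.5% and 8.9% for NF-kB. Cores of the metal element stood in 36.8% and 44.5%, so they were not more frequent among the called higher genes. Motifs were searched on both strands. For NF-kB the consensus GGGRNYYYCC (R a purine, Y a pyrimidine, N any base) was taken strictly. Near forms such as the one further upstream in Cxcl10 were therefore not counted. A match is only a description of these letters, not a bound site.

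Many early-response transcription factors and RNA regulators rose, although Fos and Jun did not pass the test. Of 34 genes listed 31 were tested, of which 17 were called higher and 0 lower (54.8% higher, against 3.06% of all genes tested), with a median log2 fold change of 2.04. The count was 17 without FH replicate 1 as well, when 1 was lower. Fosl1, a Fos-family subunit of AP-1, had 0 counts over the FH libraries and 35.2, 15.1 and 24.2 CPM at 3 h, which was at least 21.9-fold higher against a floor of 3 counts over the group. Myc, the growth-promoting factor, had 2.19, 2.6 and 0 CPM in FH and 143, 496 and 340 CPM at 3 h (7.71 ± 1.19, adjusted p = 0.00023). Atf3, a stress-induced partner of Jun, rose from 43.7, 42.9 and 300 to 1561, 1099 and 1712 CPM, where FH replicate 3 was the highest of its group but under every library at 3 h. Egr1, a zinc finger early factor, rose from 146, 256 and 208 to 774, 1253 and 940 CPM, or 2.28 ± 0.36.

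Maff, a small Maf protein, went from 9.84, 24.7 and 52.9 to 516, 339 and 465 CPM. Cebpb, a factor of the acute-phase and regenerative response, went from 435, 181 and 266 to 1282, 2779 and 2243 CPM. Zfp36, which speeds the decay of AU-rich mRNAs, went from 281, 83.2 and 116 to 1002, 2732 and 1796 CPM. All 3 were called, with log2 fold changes of 3.9 ± 0.47, 2.84 ± 0.39 and 3.52 ± 0.50. Fos and Jun, the founding subunits of AP-1, were not called. Fos had 65.6, 76.7 and 170 CPM in FH and 117, 218 and 104 CPM at 3 h, and the groups overlapped (0.49 ± 0.42, adjusted p = 0.46). Jun had 2623, 2142 and 2397 CPM in FH and 1341, 1759 and 1716 CPM at 3 h (-0.57 ± 0.27, adjusted p = 0.17), so it was abundant before plating, in the range where UMI counts are compressed.

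Among phosphatases and feedback regulators of MAP kinases and other induced signalling genes, for short ERK feedback genes, many rose too. The list takes in genes written down as induced, so its share is no test of ERK action at 3 h. Of 25 listed, 21 were tested, 10 were called higher and 0 lower (47.6% higher, against 3.06% of all genes tested, median 2.02), and 11 were higher without FH replicate 1. Besides Dusp5 these were led by Phlda1, a growth-factor-induced regulator, with 62.3, 276 and 53.9 CPM in FH and 1391, 1514 and 1430 CPM at 3 h. The phosphatase Dusp4 went from 2.19, 2.6 and 1.96 to 36.4, 30.3 and 37.4 CPM, and Dusp10, which prefers p38 and JNK, from 5.46, 2.6 and 2.94 to 34, 40.4 and 18.7 CPM. Dusp6, the cytoplasmic ERK phosphatase, rose from 254, 55.9 and 93.1 to 861, 992 and 1031 CPM (2.84 ± 0.56), and Dusp1, which acts on p38, JNK and ERK, from 302, 130 and 97 to 435, 787 and 920 CPM (2.02 ± 0.47), just past the fold threshold. FH replicate 1 was the highest of the FH libraries for Dusp6 and Dusp1.

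Of 5 tested ligands of the EGF receptor, Hbegf, Btc and Areg were called higher and Ereg and Tgfa were not called, nor was the receptor itself. Of 26 growth factor and hormone signalling genes, all tested, 6 were called higher and 0 lower (23.1% higher, median 0.41), and 7 and 1 without FH replicate 1. Hbegf, a membrane-anchored ligand of the EGF receptor, had 1 count over the FH libraries and 25.8, 26.2 and 23.1 CPM at 3 h, a ratio of 67.8 with a counting interval of 11.8 to 2720. Btc, another ligand of that receptor, went from 2.19, 1.3 and 1.96 to 14.1, 10.1 and 20.9 CPM. Areg, amphiregulin, had 0 counts over the FH libraries and 15.2, 11.1 and 13.2 CPM at 3 h, at least 11.8-fold higher against a floor of 3 counts over the group (adjusted p = 0.0089 by edgeR). Ereg, epiregulin, had 1 count in FH and 7 at 3 h (adjusted p = 0.25). Tgfa, transforming growth factor alpha, had 25.1, 14.3 and 14.7 CPM in FH against 7.04, 21.2 and 8.81 CPM at 3 h, with overlapping groups (-0.53 ± 0.48, adjusted p = 0.49). Gdf15, a circulating stress signal, went from 31.7, 79.3 and 166 to 835, 720 and 591 CPM (2.95 ± 0.47). Egfr had 622, 481 and 561 CPM in FH and 585, 925 and 770 CPM at 3 h, groups that overlapped (0.45 ± 0.29, adjusted p = 0.32).

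NF-kB targets and chemokines rose as well. Of 29 listed, 23 were tested, 12 were called higher and 0 lower (52.2% higher, median 2.08), and 13 were higher without FH replicate 1. Cxcl10, a chemokine also induced by interferon, had 31.7, 2.6 and 4.9 CPM in FH and 1104, 1208 and 1849 CPM at 3 h, with FH replicate 1 above the other FH libraries (6.71 ± 0.78, and 8.46 without it). Cxcl1, which attracts neutrophils, rose from 50.3, 36.4 and 24.5 to 469, 553 and 443 CPM, or 3.72 ± 0.44. Icam1, an adhesion molecule, rose from 4.37, 2.6 and 4.9 to 138, 58.5 and 70.5 CPM, and Nfkbia, the inhibitor that returns NF-kB to the cytoplasm, from 314, 285 and 246 to 1017, 1158 and 1407 CPM (2.08 ± 0.26, adjusted p = 2e-05). The 2 groups did not overlap for these 4 genes, which were named for the smallest p among the called members. Groups did not overlap for 14 of the 23 tested members and for 28.1% of all genes tested.

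Among acute-phase plasma proteins the calls were Lcn2, Saa3 and Steap4. Of 23 tested, 3 were called higher and 0 lower (13% higher, median 0.28), and 6 were higher without FH replicate 1. Saa3 went from 31.7, 20.8 and 19.6 to 203, 54.5 and 251 CPM (2.81 ± 0.59). Steap4, a metalloreductase induced by cytokines, had 624, 63.7 and 87.2 CPM in FH and 1688, 1952 and 2621 CPM at 3 h (3.01 ± 0.90, and 4.79 without FH replicate 1). Saa1, the major serum amyloid A, had 1962, 322 and 198 CPM in FH and 2225, 1390 and 2664 CPM at 3 h. It was not called (1.34 ± 0.54, adjusted p = 0.11), and was called higher without FH replicate 1 (3.01), the library in which it was near the level of 3 h.

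Of the stress genes, some that answer metals and oxidants were called, and heat shock genes gave no call. Metal and oxidative stress genes had 4 of 18 called higher and 0 lower (22.2% higher, median 0.58), or 6 higher without FH replicate 1. Mt1 rose from 75.4, 385 and 437 to 3291, 2840 and 2774 CPM (3.31 ± 0.48). Hmox1, the heme oxygenase, rose from 16.4, 31.2 and 5.88 to 650, 1141 and 822 CPM (5.64 ± 0.65), and Srxn1, a sulfiredoxin of the NRF2 pathway, from 113, 139 and 61.7 to 1869, 818 and 1647 CPM (3.79 ± 0.43). Heat shock and chaperone genes had 0 of 23 called by edgeR or DESeq2, with a median of -0.09, 3 lower at an FDR under 0.1 alone, and 7 at an unadjusted p under 0.05, 1 of them higher. Hspa1b, an inducible Hsp70, had 52.5, 31.2 and 31.4 CPM in FH and 22.3, 5.04 and 15.4 CPM at 3 h (-1.44 ± 0.48, adjusted p = 0.055), under the fold threshold. Hspa1a, its near-identical neighbour, had 7 counts in FH and 1 at 3 h, and reads of the pair can be split between them.

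Of 22 tested genes of the ER and integrated stress responses, 2 were called higher and 0 lower (9.09% higher, median 0.49), and 5 were higher without FH replicate 1. Chac1, a glutathione-degrading target of Atf4, had 1.09, 57.2 and 7.84 CPM in FH and 438, 515 and 345 CPM at 3 h. Ppp1r15a, which restarts translation, had 16.4, 2.6 and 4.9 CPM in FH against 165, 86.8 and 62.8 CPM at 3 h. Their rises were 4.34 ± 0.73 and 3.69 ± 0.75. Hspa5, the ER chaperone BiP, had 2374, 1595 and 2360 CPM in FH against 2108, 1486 and 1443 CPM at 3 h (-0.33 ± 0.29), and Ddit3, the pro-apoptotic factor Chop, had 0, 3.9 and 12.7 CPM in FH against 15.2, 6.05 and 1.1 CPM at 3 h (0.36 ± 0.90). The groups overlapped for both.

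Some genes of p53 and the cell cycle were called, where all genes tested had 3.06% called higher and 3.85% lower. In the list of p53 targets and G1 regulators 3 of 17 were called higher and 1 lower (17.6% and 5.88%, median 0.28), and 4 and 1 without FH replicate 1. Gadd45a, a DNA damage and stress inducible protein, had 15.3, 2.6 and 6.86 CPM in FH and 1047, 816 and 1245 CPM at 3 h (6.94 ± 0.86). Its relative Gadd45b went from 1.09, 1.3 and 2.94 to 36.4, 8.07 and 38.5 CPM. Bbc3, which encodes the pro-apoptotic Puma, fell from 20.8, 22.1 and 20.6 to 5.86, 4.04 and 2.2 CPM (-2.38 ± 0.45). Ccnd1, cyclin D1, had 68.8, 24.7 and 45.1 CPM in FH against 23.4, 52.5 and 27.5 CPM at 3 h (-0.42 ± 0.44, adjusted p = 0.56). Of 15 proliferation genes 0 were called higher and 2 lower (13.3% lower), Mki67 with 25 counts in FH and 2 at 3 h, and Mcm5 with 9 and 0. Neither was called without replicate 2 at 3 h. Mki67 was not called without FH replicate 1 (-2.86).

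Cytoskeletal genes moved in part, with 5 of 31 called higher and 1 lower (16.1% and 3.23%, median 0.37). Actg1, cytoplasmic gamma actin, rose from 221, 81.9 and 173 to 2339, 1729 and 1933 CPM (3.65 ± 0.42). Actb had 459, 991 and 1536 CPM in FH and 2214, 2115 and 1484 CPM at 3 h, which did not pass the test (0.96 ± 0.39, adjusted p = 0.11). Krt8, the hepatocyte keratin, rose from 142, 133 and 218 to 1824, 745 and 1625 CPM (3.09 ± 0.36). Its partner Krt18 went from 138, 286 and 525 to 1718, 592 and 873 CPM, with an adjusted p of 0.0089 but under the fold threshold (1.74 ± 0.41). Tubb6, a beta tubulin, rose by 4.34 ± 0.57 and Ezr, a linker of actin to the membrane, by 2.96 ± 0.40, and Anxa3 was lower with 14 counts in FH and 2 at 3 h. Vim, an intermediate filament of mesenchymal cells, had 3 counts over the FH libraries and 4 over those at 3 h.

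Among 19 tested matrix and protease genes 2 were called higher and 1 lower (10.5% and 5.26%, median 0.94). Plaur, the urokinase receptor, was higher with 1 count in FH and 11 at 3 h, and the hyaluronan receptor Cd44 was lower, as it had 52 counts in FH and 2 at 3 h. Plaur was not called without FH replicate 1 or 3 or without replicate 2 at 3 h, which held 8 of the 11 counts. Targets of Yap, the effector of Hippo signalling, went both ways, with 4 of 16 called higher and 3 lower (25.0% and 18.8%, median 0.06), the same counts without FH replicate 1. Ccn1, an extracellular matrix-associated signalling protein, rose from 68.8, 5.2 and 49 to 491, 437 and 568 CPM (3.59 ± 0.96), and F3, tissue factor, had 1 count in FH and 46 at 3 h. Tgfb2 had 0 counts in FH and 6 at 3 h, and was not called without FH replicate 2 or 3 or without replicate 1 or 3 at 3 h. Ccn2, the Yap target most used as a readout, had 0 counts in FH and 3 at 3 h, all in 1 library, which did not pass the test. Ajuba, a LIM protein that restrains Hippo kinases, had 10.9, 13 and 24.5 CPM in FH and 0 counts at 3 h, at least 15.3-fold lower. Axl, a receptor tyrosine kinase, had 23 counts in FH and 0 at 3 h, and Nuak2 fell from 14.2, 16.9 and 25.5 to 2.35, 3.03 and 4.4 CPM.

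**Figure D3:**
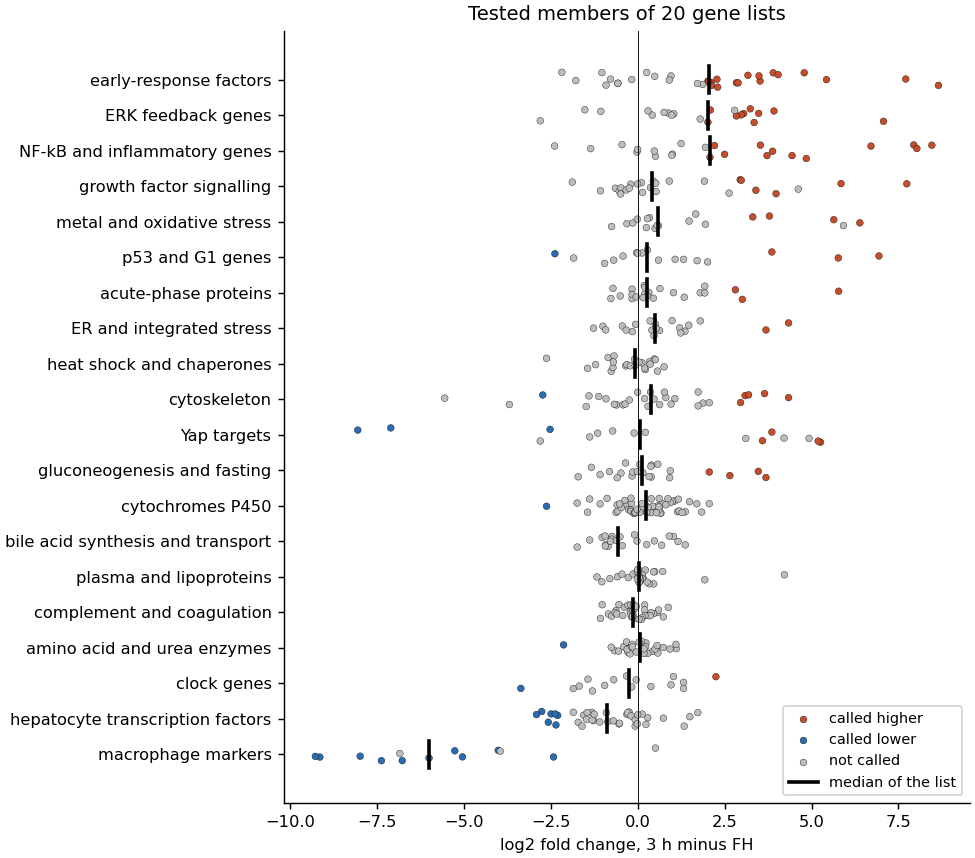
Log2 fold changes of 3 h minus FH for the tested members of 20 gene lists, 1 point a gene, spread vertically so that points can be told apart, with the list's median as a bar. Early-response, ERK feedback and NF-kB genes have medians near 2, hepatocyte transcription factors a median of -0.88 and macrophage markers a median of -6.00, and the metabolic lists lie around 0.

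Transcripts of macrophages and stellate cells were present in FH and lower at 3 h. Those of endothelial cells were lower in sum, with 2 of 12 called lower (16.7%), and those of blood and bile duct cells were not lower. Macrophage markers summed to 334, 320 and 113 CPM of the library total in the FH libraries and 2.3, 6.58 and 11.6 CPM at 3 h, and 10 of 13 tested markers were called lower (76.9%, against 3.85% of all genes tested, median -6.00). Of the defining Kupffer cell markers, Clec4f had 62.3, 67.6 and 21.6 CPM in FH and 1.17, 1.01 and 0 CPM at 3 h, while Cd5l and Vsig4 had 89 and 101 counts in FH and 0 at 3 h. The other markers called lower were Csf1r, C1qb, C1qc, Lyz2, Cd74, Tyrobp and Fcer1g, and Marco, Cd68 and C1qa were not called. The count was 10 without FH replicate 1 or 3, 4 without FH replicate 2 or replicate 2 at 3 h, 6 without replicate 1 or 3 at 3 h and 5 in a fit of the 6 libraries alone. Cd74, C1qb, C1qc, Lyz2 and Tyrobp lost their call when FH replicate 2 or any 1 library at 3 h was left out. With a replicate block by the number that ends the column names, 0 of the macrophage markers were called. In bulk RNA, fewer cells of a type and less RNA per cell cannot be told apart. Genes of MHC class II, a group picked after the values were seen, went the same way, as H2-Ab1 fell from 40.4, 52 and 16.6 to 0, 8.07 and 4.4 CPM and H2-Aa and H2-Eb1 were also called lower.

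Endothelial markers summed to 336, 387 and 308 CPM in FH and 94.1, 148 and 76.8 CPM at 3 h, with 2 of 12 called lower, Ptprb and Gpr182 (16.7%, median -1.61), and 0 without FH replicate 2 or replicate 1 or 3 at 3 h. Stellate cell markers summed to 188, 149 and 123 and 22.2, 25 and 27.4 CPM, with 3 of 8 called lower, Colec11, Ecm1 and Rgs5 (37.5%, median -2.66). Blood markers were at 62.4, 103 and 136 and 119, 133 and 112 CPM, and lymphocyte markers at no more than 2.74 CPM in any library, with 4 of 10 at 0 throughout. Cholangiocyte markers had sums of 51.2, 14 and 84 CPM in FH and 423, 416 and 435 CPM at 3 h, nearly all of it from Sox9, a factor of bile duct and progenitor cells, which had 51.4, 14.3 and 99 TMM-scaled CPM in FH and 619, 619 and 621 at 3 h (3.48 ± 0.49). TMM factors were 0.627 to 0.736 in the 6 libraries, so scaled values run above those of the library total. Spp1, osteopontin, rose from 5.46, 1.3 and 1.96 to 17.6, 12.1 and 69.4 CPM, whereas Krt19 had 0 counts in all 6 libraries. The part of these other cells in the remaining lower calls was not tested.

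**Figure D4:**
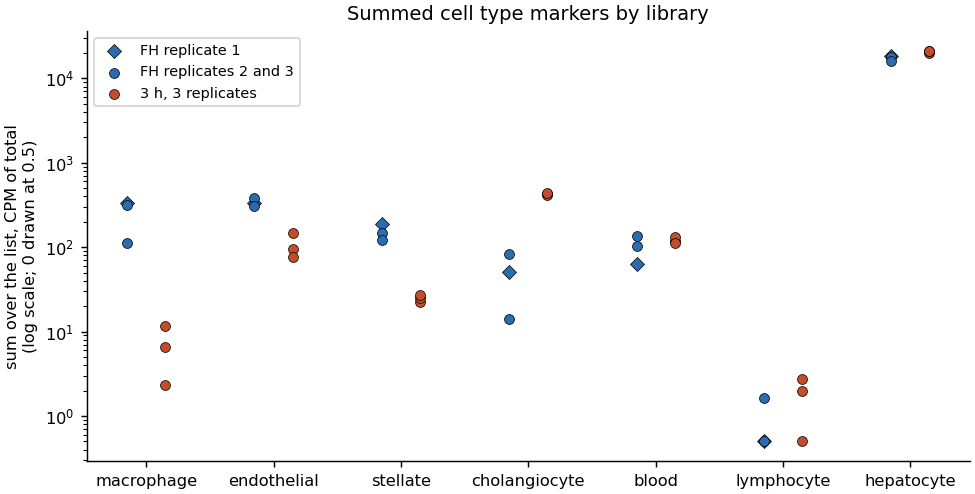
Summed CPM of the library total on a log axis for 7 marker lists in each of the 6 libraries, FH in blue (replicate 1 as a diamond) and 3 h in orange. Macrophage, endothelial and stellate sums are lower in every library at 3 h than in every FH library, the cholangiocyte sum is higher, and the hepatocyte sums lie close together.

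Among the genes that fell with the strongest evidence were hepatocyte regulators. Foxa2 (ENSMUSG00000037025, chromosome 2, 148042877 to 148046969), a pioneer factor of liver chromatin, fell from 125, 179 and 146 CPM in FH to 14.1, 19.2 and 33 CPM at 3 h, a log2 fold change of -2.76 ± 0.34 with an adjusted p of 1.5e-05 by edgeR. Prox1 (chromosome 1, 190118035 to 190170714), a homeobox factor needed for hepatocyte identity, fell from 628, 434 and 1140 to 84.4, 153 and 55 CPM (-2.91 ± 0.43). Anks4b (chromosome 7, 120173858 to 120185586), a scaffold protein of the brush border, fell from 216, 228 and 476 to 14.1, 6.05 and 9.91 CPM (-4.94 ± 0.57). Groups did not overlap for any of the 12 lower genes with the smallest p.

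The rest of these 12 were of mixed function. Dgkq, a diacylglycerol kinase, fell from 109, 211 and 136 to 18.8, 19.2 and 25.3 CPM, Fahd1, a mitochondrial oxaloacetate decarboxylase, from 109, 161 and 128 to 19.9, 36.3 and 36.3 CPM, and Mrm2, a mitochondrial rRNA methyltransferase, from 28.4, 44.2 and 50.9 to 7.04, 5.04 and 2.2 CPM. Kmt2e and Arid4a, both chromatin proteins, had log2 fold changes of -2.17 ± 0.33 and -3.53 ± 0.54. Fignl2 had 84 counts in FH and 3 at 3 h, a ratio of 28.5 with a counting interval of 9.42 to 141. Gm5844, annotated as a processed pseudogene and so uncertain as its reads can come from a parent gene, went from 198, 190 and 140 to 25.8, 19.2 and 30.8 CPM. The zinc finger genes Zfp219 and Zfp606 went from 21.9, 41.6 and 43.1 to 3.52, 6.05 and 3.3 CPM and from 48.1, 48.1 and 44.1 to 9.38, 1.01 and 5.5 CPM.

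Zinc finger genes recurred among those lower. Of 301 tested genes with symbols of the Zfp, Zscan, Zkscan, Zbtb or Zmym series, 44 were called lower (14.6%, against 3.85% of all genes tested) and 4 higher (1.33%, against 3.06%), with a median of -0.92, and 47 and 6 without FH replicate 1. This group was chosen after the values were seen and is a description only. Zfp532 and Zmym2 were among the lower genes, with 21.9, 49.4 and 23.5 and 75.4, 61.1 and 101 CPM in FH against 1.17, 0 and 2.2 and 24.6, 15.1 and 18.7 CPM at 3 h, and the higher ones were Zfp36, Zbtb21, Zfp697 and Zkscan6. The last 2 were not called without FH replicate 1.

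By abundance in FH, the called lower genes were led by Prox1, Gm12744, Ddc, Garem1 and Nr5a2. Ddc, which decarboxylates aromatic amino acids, fell from 385, 437 and 1298 to 257, 141 and 119 CPM (-2.04 ± 0.44), and Garem1, an adaptor of EGF receptor signalling, from 312, 1081 and 456 to 93.8, 115 and 68.3 CPM (-2.73 ± 0.43). Gm12744, annotated as an antisense gene, whose reads may include those of an overlapping gene if the counting did not use strand, fell from 434, 1274 and 448 to 101, 35.3 and 27.5 CPM.

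Hepatocyte transcription factors and nuclear receptors fell in part, and some of the central ones did not. Of 39 listed 38 were tested, 0 were called higher and 7 lower (18.4% lower, median -0.88), a further 9 were lower and 2 higher at an FDR under 0.1 alone, and 8 lower and 1 higher were called without FH replicate 1. Nr5a2 (Lrh1), a receptor that drives bile acid genes, fell from 300, 808 and 447 to 103, 119 and 93.6 CPM (-2.30 ± 0.38). Ppara, the receptor of fatty acids, fell from 27.3, 133 and 122 to 14.1, 20.2 and 15.4 CPM (-2.49 ± 0.49, and -2.93 without FH replicate 1, which was the lowest of its group). Tbx3, a T-box factor of pericentral hepatocytes, fell from 35, 15.6 and 54.9 to 3.52, 12.1 and 4.4 CPM.

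Hnf4a, the central hepatocyte receptor, had 444, 284 and 400 CPM in FH and 393, 500 and 484 CPM at 3 h (0.29 ± 0.31, adjusted p = 0.57), with overlapping groups. Cebpa had 342, 494 and 417 CPM in FH against 468, 319 and 454 CPM at 3 h (-0.01 ± 0.31), and Foxa1 had 60.1, 16.9 and 10.8 CPM in FH against 15.2, 27.2 and 45.1 CPM at 3 h (0.00 ± 0.76). Neither passed the test, and the sign of both differences turned with the normalization. Foxa3 had 21.9, 138 and 109 CPM in FH against 22.3, 56.5 and 33 CPM at 3 h (-1.25 ± 0.55, adjusted p = 0.14). Within the Foxa family Foxa2 passed the threshold and Foxa1 and Foxa3 did not, and the difference between these genes was not itself tested.

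Some genes of gluconeogenesis and fasting were called, and these rose. Over all genes tested 3.06% were called higher and 3.85% lower, and the other metabolic lists had shares nearer to or under these. Of 24 tested genes of gluconeogenesis and fasting, 4 were called higher and 0 lower (16.7% higher, median 0.14), and 4 and 1 without FH replicate 1. The 4 became 2 without FH replicate 3 or replicate 2 at 3 h, when Tat and Pdk4 were not called. Tat, which degrades tyrosine and responds to glucocorticoids, had 1311, 61.1 and 99 CPM in FH and 1364, 2265 and 2496 CPM at 3 h (2.06 ± 0.74, and 4.67 without FH replicate 1). Sds, serine dehydratase, had 200, 13 and 50.9 CPM in FH against 553, 1239 and 1137 CPM at 3 h (3.47 ± 0.70). Ehhadh, of peroxisomal fatty acid oxidation, had 16.4, 5.2 and 3.92 CPM in FH against 22.3, 232 and 76 CPM at 3 h, and Pdk4, which spares glucose, 2.19, 5.2 and 0 CPM in FH against 3.52, 29.3 and 11 CPM at 3 h. Pck1 and G6pc, the key enzymes of gluconeogenesis, were not called, Pck1 with 2384, 1438 and 1142 CPM in FH against 2601, 3310 and 3596 CPM at 3 h (0.94 ± 0.47) and G6pc with 476, 170 and 454 CPM in FH against 407, 422 and 394 CPM at 3 h (0.15 ± 0.54).

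In glycolysis 1 of 19 was called higher and 1 lower (5.26% each, median 0.02). Pfkfb3, the inducible activator of phosphofructokinase, rose from 12, 52 and 59.8 to 584, 394 and 379 CPM (3.45 ± 0.57), and Pkm, the pyruvate kinase of non-hepatic and growing cells, fell from 16.4, 16.9 and 18.6 to 1.17, 4.04 and 3.3 CPM (-2.56 ± 0.64). Hk2 had 1 count in each group. Amino acid and urea cycle enzymes had 0 of 30 higher and 1 lower (3.33%, median 0.07), which was Nags, whose product activates Cps1, at 165, 164 and 348 CPM in FH and 34, 77.7 and 42.9 CPM at 3 h. Cps1 (0.74 ± 0.40) and Tdo2 (0.53 ± 0.34) were not called. Sterol and lipid synthesis had 0 of 28 higher and 1 lower (3.57%, median -0.16), Mvd, a step of the mevalonate pathway (-2.12 ± 0.72).

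Bile acid synthesis and transport had 0 of 22 called by edgeR or DESeq2, with a median of -0.56, 1 lower and 2 higher at an FDR under 0.1 alone, and 7 at an unadjusted p under 0.05, 3 of them higher. Cyp8b1, which sets the ratio of bile acids, was the one lower, with 1584, 2572 and 2603 CPM in FH and 586, 1205 and 799 CPM at 3 h (-1.38 ± 0.36, adjusted p = 0.017), so that the groups did not overlap but the change was under 4-fold. Cyp7a1, the rate-limiting enzyme, had 122, 268 and 48 CPM in FH against 4.69, 59.5 and 66.1 CPM at 3 h (-1.74 ± 0.77, adjusted p = 0.16). The transporters Slc10a1 (0.69 ± 0.40) and Abcb11 (-0.51 ± 0.45) did not pass either. Among cytochromes P450 0 of 56 were called higher and 1 lower (1.79%, median 0.23), Cyp26b1, which breaks down retinoic acid, at 145, 37.7 and 152 CPM in FH against 19.9, 33.3 and 1.1 CPM at 3 h. Cyp1a2 (0.21 ± 0.38), Cyp3a11 (0.87 ± 0.51) and Cyp2e1 (0.94 ± 0.44) were not called, and 5 of the family were called higher without FH replicate 1. In phase II conjugation 2 of 37 were called higher and 1 lower (5.41% and 2.70%, median 0.37), Gsta1 from 15.3, 6.5 and 6.86 to 82.1, 36.3 and 46.2 CPM, Sult1e1 with 0 counts in FH and 11 at 3 h, and Ugt1a1 with 27 and 3 counts. Ugt1a genes share their 3′ exons, so a 3′ count of a single member is uncertain. Neither Gsta1 nor Sult1e1 was called without FH replicate 2 or 3, and 5 conjugation genes were higher without FH replicate 1.

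The major plasma, complement and urinary proteins gave no call by edgeR or DESeq2. The counts were 0 of 29 plasma protein and apolipoprotein genes (median 0.05), 0 of 38 complement and coagulation genes (median -0.13) and 0 of 21 major urinary protein genes (median 0.04), with 2, 1 and 1 of them at an FDR under 0.1 alone and 5, 2 and 2 at an unadjusted p under 0.05. Alb had 3942, 4854 and 3694 CPM in FH and 4507, 4040 and 4359 CPM at 3 h and Ttr 2988, 4737 and 3825 CPM in FH against 3981, 3756 and 3995 CPM at 3 h, levels at which UMI counts are compressed. Compression makes falls as well as rises read smaller, so the absence of calls does not show that such abundant transcripts were unchanged. F7, a short-lived clotting factor, had 166, 508 and 665 CPM in FH against 246, 305 and 196 CPM at 3 h (-0.84 ± 0.46, adjusted p = 0.24), and Mup5 had 2135, 3039 and 2906 CPM in FH against 2923, 2150 and 3041 CPM at 3 h. Mup genes share their sequences, so counts of single members are uncertain. Genes of the mitochondrial genome (0 of 21, also 0 at an unadjusted p under 0.05) and ribosomal proteins (0 of 84, 9 higher and 1 lower at an FDR under 0.1 alone and 21 at an unadjusted p under 0.05) were not called by edgeR or DESeq2. Ribosome biogenesis had 1 of 25 called higher (4.00%, median 0.30), Gar1, with a log2 fold change of 2.42 ± 0.70, while Ncl had -0.19 ± 0.37.

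Genes of zonation, the clock and epithelial identity gave few calls in short lists, where all genes tested had 3.06% called higher and 3.85% lower. Of the pericentral list 1 of 10 was called lower (10%), Tbx3, and of the periportal list 1 of 14 higher (7.14%), Sds. Glul, the pericentral glutamine synthetase, had 236, 290 and 174 CPM in FH against 408, 690 and 417 CPM at 3 h (1.11 ± 0.34, adjusted p = 0.036), under the fold threshold, and Cyp2f2, a periportal P450, had a difference of -0.09 ± 0.37. Among 16 clock genes 1 was called higher and 1 lower (6.25% each, median -0.24), Bhlhe41, a repressor of the clock, with 6.56, 14.3 and 16.6 CPM in FH against 76.2, 64.6 and 38.5 CPM at 3 h, and Per3 with 17.5, 48.1 and 59.8 CPM in FH against 3.52, 2.02 and 6.61 CPM at 3 h. Bhlhe41 was not called without FH replicate 1 (1.94). Per1 (-0.32 ± 0.48), Dbp (1.32 ± 0.53) and Arntl (-0.04 ± 0.91) did not pass the test, and the hour of day at which livers were taken is not given in the sources used here.

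In the list of epithelial and mesenchymal genes followed by the study, 2 of 13 were called lower (15.4%, median -0.14), Id1, a BMP target, from 13.1, 14.3 and 49 to 10.6, 1.01 and 4.4 CPM, and Mki67. Id2, also a BMP target, had a log2 fold change of -1.06 ± 0.34 (adjusted p = 0.047), under the fold threshold. Cdh1, E-cadherin, had 368, 289 and 174 CPM in FH against 360, 484 and 372 CPM at 3 h (0.55 ± 0.27), and Cldn3 (-0.84 ± 0.49) and Ocln (-0.14 ± 0.32), both of tight junctions, were not called. The ligands Bmp4 and Bmp7 were at or under 9.91 CPM in every library, Prom1 had 2 counts in FH and 1 at 3 h, Lamb1 12 and 3, and S100a7a 0 in all 6 libraries.

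Pseudogenes were called in both directions. Of 1209 tested 85 were called higher (7.03%) and 65 lower (5.38%), against 280 higher (2.59%) and 390 lower (3.60%) of 10830 protein-coding genes. Their reads can come from parent genes with near-identical sequence, so these calls are uncertain. This grouping was made after the values were seen.

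The contrast of 1 d minus 3 h was taken from the same fit and shares the 3 h libraries with that of 3 h minus FH, so its values are only set side by side. It called 24.2% of the genes tested. Several of the genes that rose were low again 1 d after plating. Cxcl10, at 1387 ± 403 CPM (SD, n = 3) at 3 h, was at 2.76 ± 3.13 CPM at 1 d, a log2 difference of -8.96 ± 0.87. Gadd45a went from 1036 ± 215 to 20.2 ± 8.2 CPM, Myc from 327 ± 177 to 7.08 ± 1.18 CPM and Zfp36 from 1843 ± 866 to 43.3 ± 11.5 CPM, all called lower at 1 d. Tat and Sds, which had been higher at 3 h than in FH, were at 1.71 ± 0.488 and 0.278 ± 0.243 CPM at 1 d. Pck1, which had not been called at 3 h, was at 4.42 ± 3.88 CPM at 1 d against 3169 ± 512 at 3 h.

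Another set was not called between 3 h and 1 d. Dusp5 had 783 ± 76.2 CPM at 3 h and 544 ± 90.8 CPM at 1 d (-0.52 ± 0.34, adjusted p = 0.22), and Krt8 had 1398 ± 574 and 1406 ± 259 CPM (0.01 ± 0.33). Cdkn1a, at 327 ± 139 CPM at 3 h, was at 741 ± 193 CPM at 1 d, with a log2 difference of 1.18 ± 0.34 (adjusted p = 0.0074), under the fold threshold. Lcn2 had 568 ± 129 CPM at 3 h and 1196 ± 287 CPM at 1 d (1.07 ± 0.37, adjusted p = 0.022), and Srxn1 had 1445 ± 554 and 1398 ± 134 CPM (-0.05 ± 0.38).

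The lower genes also took separate courses. Foxa2 was at 22.1 ± 9.81 CPM at 3 h and 96.7 ± 25.1 CPM at 1 d, called higher (2.12 ± 0.33, adjusted p = 2.9e-05), and Dgkq at 21.1 ± 3.68 and 134 ± 30.6 CPM (2.67 ± 0.39). Prox1 was at 97.6 ± 50.5 and 125 ± 47.7 CPM (0.36 ± 0.40, adjusted p = 0.49), and Nr5a2 at 105 ± 12.9 and 66.5 ± 28.7 CPM (-0.66 ± 0.37), neither called. Ddc went on down, from 172 ± 74 to 5.92 ± 0.956 CPM. Ajuba, at 0 counts at 3 h, was at 125 ± 48.3 CPM at 1 d, Cd44 at 140 ± 22.7 CPM and Ccn2 at 90.4 ± 8.35 CPM. Of the macrophage markers, Clec4f at 8.88 ± 8.4 CPM and Cd5l at 1.62 ± 1.53 CPM were not called between 3 h and 1 d, while Vsig4 at 7.75 ± 6.74, C1qb at 16.7 ± 13.7 and Fcer1g at 5.85 ± 4.35 CPM were called higher at 1 d. Single libraries at 1 d had 24.4, 24.8 and 0.889 CPM for C1qb and 7.63, 9.03 and 0.889 CPM for Fcer1g. For these genes the higher values were thus those of replicates 1 and 2 only.

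**Figure D5:**
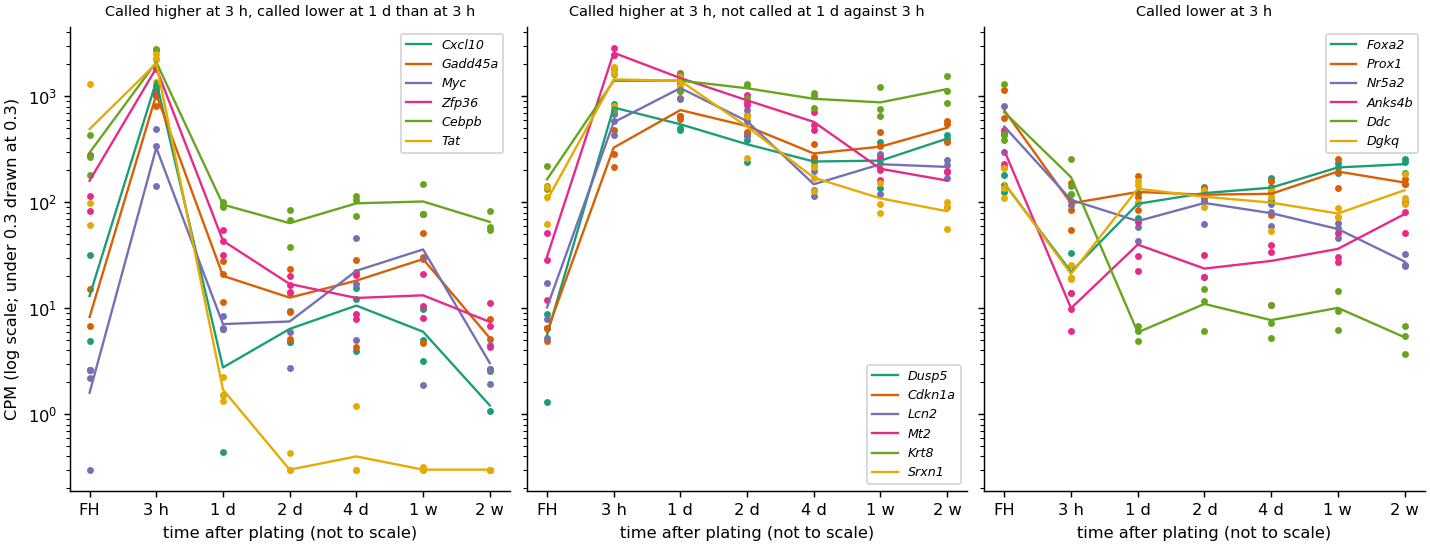
CPM on a log axis in FH and at 6 times after plating (points, 3 libraries each; lines, group means) for 18 genes in 3 panels. Cxcl10, Gadd45a, Myc, Zfp36, Cebpb and Tat have their highest mean at 3 h, Dusp5, Cdkn1a, Lcn2, Mt2, Krt8 and Srxn1 are not called between 3 h and 1 d, and of the genes lower at 3 h Foxa2, Anks4b and Dgkq are higher again at 1 d while Prox1 and Nr5a2 are not called and Ddc drops further.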

How the data were processed

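Before deposit, the authors prepared CEL-seq2 libraries, sequenced them on an Illumina NovaSeq and made UMI counts per gene with the celseq2 pipeline. The deposited table holds raw counts, not normalized, for 46078 Ensembl identifiers in 49 libraries. The submitters' processing notes name bcl2fastq 2.20, Bowtie2 2.3.1, HTSeq 0.6.0 and GRCm38. The annotation release is not given in the sources used here.

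Counts of 21 libraries (FH and 6 time points, 3 each) were fitted with 7 groups in edgeR 4.0.16 (R 4.3.3) with TMM factors, filterByExpr (minimum count 10, minimum total count 15) and the quasi-likelihood F-test, leaving 14 residual degrees of freedom, and the contrasts 3 h minus FH and 1 d minus 3 h were taken. P-values were adjusted by Benjamini-Hochberg over 12443 genes. Following the study's methods, a gene was termed called at an FDR under 0.1 with a log2 fold change beyond 2 in either direction. Each SE was computed from the fold change and its F statistic. Symbols, positions and gene types were taken from GENCODE M21 (45143 identifiers matched), and promoters from RefSeq. The fit was tested on simulated counts. Totals of 1211070 to 1523804 counts per library set the precision, and intervals and floors cover counting error only.

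No pair of replicates had the likeness of a copied library, as chi-square per degree of freedom was 5.62 to 24.5. Same-numbered libraries of FH and 3 h did not deviate together (correlations of -0.168, -0.0044 and -0.221). The 1 pair that shares the number ending its column names, FH replicate 3 and 3 h replicate 1, had 0.172. FH replicate 1 and 3 h replicate 3, which share neither number, had 0.201, the highest of all pairs.

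Gene lists, members and tests were chosen with earlier results of these data known, and lists were written from general knowledge. Named were in each direction, the 12 called genes of smallest p, up to 4 called members per direction and fixed members of each list, the 5 most abundant called genes in each direction, and genes the study follows. Some genes that the rule names are not reported here. Areg, Ereg and Tgfa were added after their values were seen, to give all tested ligands of the EGF receptor. Per-gene rows of the marker lists were named where their sum is described. Alternatives were another normalization, DESeq2 1.42.0, other filters and thresholds, the 6 libraries alone, replicate blocks, corrected and thinned counts, and leaving out each library.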

Additional observations from a re-analysis of the deposited data

How the results depend on the processing

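The counts were 860 genes called, 381 higher, 479 lower and 2301 at an FDR under 0.1 at any fold, and each stayed within 1.5 times of these under RLE factors (850 called), DESeq2 (860), no filter (1096), a filter of 0.5 CPM in 1 library (1106), counts corrected for shared UMIs (868) and counts thinned to the smallest total (695). A fit of the 6 libraries alone, with fewer residual degrees of freedom and 8524 genes tested, called 527 genes, 230 of them lower, with 1361 at an FDR under 0.1. An FDR under 0.05 left 1447 genes at any fold, and a fold threshold of 1 on the log2 scale gave 2093 called, 853 higher and 1240 lower. With 1 library left out, 620 to 1527 genes were called, 261 to 898 higher and 359 to 629 lower, with 1201 to 3657 at an FDR under 0.1, the highest value of each without FH replicate 1, and the cause was not tested. Lowest were the fits without FH replicate 2 (620 called) and 3 (653).

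Same-numbered libraries by title did not deviate together. With 3 libraries a group, such correlations cannot tell whether the titles' replicate numbers mark a shared origin. With a replicate block by title number 877 genes were called, 376 higher, 501 lower and 2280 at an FDR under 0.1, and of the genes named Dusp1 and Plaur lost their call. The same block in the 6 libraries gave 575 called, 220 lower and 953 at an FDR under 0.1. A replicate block by the number that ends the column names gave 264 called, 174 higher, 90 lower and 296 at an FDR under 0.1. Numbers 5 and 6 occur in it at 3 h and not in FH, which leaves fewer libraries for the contrast, and 52 of the 116 called genes named lost their call in it, 10 macrophage markers among them. Whether these numbers mark shared isolations is not given in the sources used here. From 1 d to 2 w, C1qb was at 0.889, 0.433, 0, 0 and 0 CPM in replicate 3. Replicates 1 and 2 had 2.23 to 70 CPM at these times. Clec4f and Cd5l were also lowest in replicate 3 at each of these times, whereas Cd68 was highest in replicate 3 at 4 d. The main fit holds no block and treats its libraries as independent, and a shared origin of same-numbered libraries was not tested.

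Of 169 genes named and tested, 116 were called, and 0 of these changed direction in any alternative run. Leaving out 1 library cost 5 to 20 of them their call, 35 in all, among them Dusp1, Nfkbia, Steap4, Tat, Nr5a2, Tbx3, Ddc, Nags, Fahd1, Zmym2, Mvd, Id1 and Gar1. Small log2 fold changes of genes that were not called turned sign as follows, and the cause was not tested. With RLE factors Cebpa was at 0.02, Foxa1 at 0.03 and Hk2 at 0.01. With DESeq2 Cebpa and Foxa1 were at 0.02 and Hk2 at 0.01. With the 0.5 CPM filter Arntl was at 0.01, Cebpa at 0.05, Foxa1 at 0.04, Hk2 at 0.03 and Krt19 at 0. In the 6 libraries alone Cebpa was at 0.02, and with the title block in them Cebpa was at 0.01 and Foxa1 at 0.29. The title block over all groups gave 0.03 for Krt19 and -0.02 for Mup5, corrected UMIs 0.01 for Foxa1 and -0.03 for Ttr, and thinned counts 0.05 for Cebpa and 0 for Hk2. The block by column number gave -0.01 for Alb, -0.52 for Bmp4, -1.62 for Bmp7, -4.01 for Cd68, 0.11 for Cebpa, -0.13 for Cyp1a2, -0.11 for Fos, -0.21 for G6pc, -0.01 for Hnf4a, 0.06 for Hspa5, -0.14 for Krt19, 0.06 for Marco, -0.15 for Mup5, 0.33 for Ncl and 0.17 for Per1. With 1 library left out the ranges were -0.54 to 1.48 for Arntl, -0.04 to 0.42 for Cyp1a2, -0.64 to 1.98 for Ddit3, -0.45 to 1.1 for Foxa1, -2.83 to 2.81 for Hk2, -0.14 to 0.15 for Mup5, -0.13 to 0.2 for Ttr, -0.24 to 0.79 for Bmp4, -0.4 to 1.5 for Bmp7, -0.14 to 0.14 for Cebpa, -0.2 to 0.04 for Cyp2f2, -0.19 to 0.38 for G6pc, -0.44 to 0.15 for Ncl, -0.73 to 0.12 for Per1, -0.27 to 4.64 for Vim, -0.03 to 0.17 for Alb, -1.39 to 1.06 for Cd68 and 0 to 4.79 for Ccn2.

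Depth limits the low genes, since 3 counts were 2.94 to 3.9 CPM, and shared UMIs limit the genes of the highest counts. With 3 libraries a group, a difference that missed the threshold is not shown to be absent.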
